A study of Arabidopsis thaliana with 4 samples.

Results

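A set of Arabidopsis probe sets was much higher in leaves after other leaves of the same rosette were wounded, and by nearly the same factor in opr3 plants as in wild type (wt). OPR3 is the 12-oxophytodienoate reductase that carries the precursor OPDA on towards jasmonic acid. The members were chosen by their measured values: a probe set, which is a group of short oligonucleotides for 1 transcript, had to reach a log2 value of 4.73 on at least 1 of the 4 arrays and to be at least 3-fold higher (log2 difference of 1.585) on the wounded than on the control array in both lines. The 2 log2 differences also had to lie less than 0.585 apart, which is 1.5-fold. The rule met 71 probe sets and left out 6 of them by name (AT5G62360, AT5G05600, AT5G55180, AT3G28220, GH3.3 and BGLU25), so 65 members remained of 22746 plant probe sets. Of these, 27 carried 1 named gene. Of the other 38, 1 carried several genes and the rest were not listed in the annotation used.

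The 4 groups were opr3 wounded, opr3 control, wt wounded and wt control, each measured on 1 Affymetrix ATH1 array. Every group consisted of plants aged 6 weeks, kept at 21 °C under days of 10 h and nights of 14 h. In wounded rosettes a part of the leaves was crushed across the midvein with tweezers, and the RNA came from uncrushed leaves 2 h later. The labels give neither the opr3 allele nor the accession of either line, and for the wounded opr3 sample the described treatment mentions wild-type plants, so its title decided its group. Without replicates no difference below has a test or a measure of spread between plants. Changes in the number of cells of a type and in RNA per cell cannot be told apart in such leaf samples.

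A crushed leaf sends signals through the vasculature that raise jasmonate in distant leaves within minutes. Jasmonate releases transcription factors from JAZ repressors and so switches on many wound genes. Other wound signals, among them calcium waves, electrical signals, abscisic acid and OPDA itself, act beside it, and plants without OPR3 can form some jasmonic acid through a bypass.

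Across all 4 arrays the lower wounded value lay above the higher control value for all 65 members, a direction that the choice of members largely fixes. The members were a median of 4.30-fold higher after wounding in opr3 (log2 2.11, range 1.59 to 4.29) and 4.27-fold higher in wt (log2 2.10, range 1.63 to 4.24). In 32 members the difference was at least 4-fold in both lines, and in 8 at least 8-fold. The response was larger in opr3 for 39 members and larger in wt for 26. Among all 14599 probe sets that reached the filter level it was larger in opr3 for 7878 and in wt for 6721. The members' responses chose them and are a description only.

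Of 14599 probe sets that reached the filter level, 1.91% were at least 3-fold higher after wounding in opr3 and 1.72% in wt, and 0.863% in both lines. The 126 probe sets in both lists made up 45.2% of the opr3 list and 50.2% of the wt list. Besides the 65 members and the 6 left out by name, they comprised 38 with a response at least 1.5-fold larger in opr3 and 17 with one at least 1.5-fold larger in wt. The plot of responses in both lines places the members along the diagonal. The sets coloured on either side are wider: they include these 38 and 17 but had to be at least 3-fold higher in 1 line only.

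**Figure D1:**
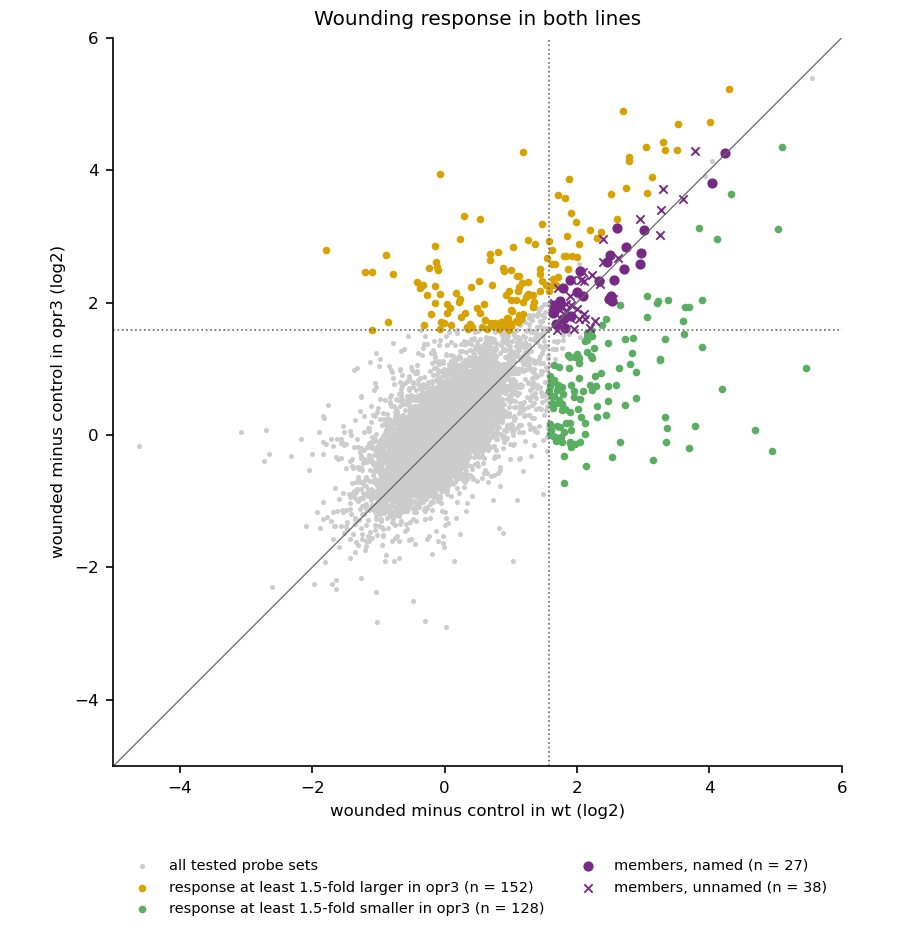
Wounding response (wounded minus control, log2) of all tested probe sets in opr3 (vertical axis) and wt (horizontal axis), 1 array per group, with dotted lines at the 3-fold limit and a solid line of equal response. The 65 members lie along the solid line above both limits because the rule chose them there, between 152 probe sets at least 3-fold higher in opr3 with a response at least 1.5-fold larger there, and 128 at least 3-fold higher in wt with a response at least 1.5-fold larger in wt.

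Among the named members, 6 belong to families that build or modify the cell wall. They were about 3.48-fold to 8.72-fold higher after wounding in opr3 and about 3.77-fold to about 6.72-fold higher in wt, where the word about marks folds with a control value under the filter level. The roles were assigned after the members were known, and the named genes are only part of the members, so the number of genes in a role is a description.

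AT3G47380, of the invertase and pectin methylesterase inhibitor family, had log2 values of 8.06 in wounded opr3 and 4.93 in opr3 control, against 7.37 in wounded wt and 4.77 in wt control. It was thus 8.72-fold higher in opr3 and 6.10-fold in wt, the widest gap toward opr3 among the named members. AT3G49220 encodes a pectin methylesterase, the type of enzyme such inhibitors act on. It was at 10.60 in wounded opr3 and 8.28 in opr3 control, and at 10.63 in wounded wt and 8.29 in wt control. The line difference (opr3 minus wt) was -0.02 after wounding and -0.01 before, and the response was 5.0-fold in opr3 and 5.06-fold in wt.

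AT3G09540 belongs to the pectin lyase-like family, which includes enzymes that cleave pectin backbones. Its values were 7.44 in wounded opr3 and 5.34 in opr3 control, and 7.74 in wounded wt and 5.65 in wt control. Of all named members it had the most equal response, 4.28-fold in opr3 and 4.27-fold in wt. AT5G15740 encodes RRT1, a rhamnosyltransferase that extends the pectin rhamnogalacturonan I. It was at 6.15 in wounded opr3 and 4.35 in opr3 control, and at 6.51 in wounded wt and 4.60 in wt control, or about 3.48-fold and about 3.77-fold higher. Both its control values were under the filter level of 4.73, where this method draws values together, so these folds are approximate, as are all folds given with the word about.

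AT4G20860, a berberine bridge enzyme-like oxidase that oxidises cellulose fragments, was at 7.70 in wounded opr3 and 5.37 in opr3 control, and at 8.35 in wounded wt and 5.78 in wt control. Its response was 5.05-fold in opr3 and 5.91-fold in wt. AT3G04010, of glycosyl hydrolase family 17, which includes the beta-1,3-glucanases, was at 7.26 in wounded opr3 and 4.43 in opr3 control, and at 6.95 in wounded wt and 4.21 in wt control. It was about 7.15-fold higher in opr3 and about 6.72-fold in wt.

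Regulatory proteins were encoded by 5 named members, which were 3.20-fold to 5.66-fold higher in opr3 and 3.23-fold to 6.58-fold in wt. TINY (tny) and AT4G32800 are AP2/ERF transcription factor genes of the DREB subfamily, and overproduction of TINY is known to dwarf plants. TINY was at 8.25 in wounded opr3 and 6.15 in opr3 control, against 7.88 in wounded wt and 5.38 in wt control. Of all 65 members it stood highest in opr3 relative to wt before wounding, by 1.71-fold, and its response was 4.28-fold in opr3 and 5.69-fold in wt. AT4G32800 was at 7.62 in wounded opr3 and 5.12 in opr3 control, and at 7.84 in wounded wt and 5.12 in wt control. Its start was level in both lines, and the response was 5.66-fold in opr3 and 6.58-fold in wt.

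AT3G05640 encodes EGR1, a type 2C protein phosphatase known to restrain growth under drought. It was at 8.75 in wounded opr3 and 6.41 in opr3 control, and at 8.86 in wounded wt and 6.97 in wt control. The line difference (opr3 minus wt) was -0.11 after wounding and -0.56 before, and the response was 5.06-fold in opr3 and 3.71-fold in wt. IQD23, of the calmodulin-binding IQ domain proteins, was at 7.22 in wounded opr3 and 5.01 in opr3 control, and at 6.90 in wounded wt and 5.11 in wt control. It was 4.64-fold higher in opr3 and 3.48-fold in wt. The protein kinase gene AT5G40540 was at 6.78 in wounded opr3 and 5.10 in opr3 control, and at 6.91 in wounded wt and 5.22 in wt control, a response of 3.20-fold and 3.23-fold.

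Membrane proteins and transporters made up 5 of the named members. AT4G30650, a small membrane protein gene of the RCI2 family of cold- and salt-induced proteins, had the largest mean response of all members. It was at 9.90 in wounded opr3 and 5.63 in opr3 control, and at 10.04 in wounded wt and 5.80 in wt control. The response was 19.2-fold in opr3 and 18.9-fold in wt, 0.02 apart on the log2 scale.

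The MATE-type efflux carrier gene AT1G61890 was at 8.67 in wounded opr3 and 7.06 in opr3 control, against 9.68 in wounded wt and 7.86 in wt control. It lay lower in opr3 in both states, by 2.02-fold after wounding and 1.74-fold before, while the response was 3.06-fold in opr3 and 3.54-fold in wt. AT4G34950, a major facilitator superfamily gene, was at 9.46 in wounded opr3 and 7.41 in opr3 control, and at 9.82 in wounded wt and 7.34 in wt control, or 4.14-fold and 5.61-fold higher. AT5G35735, of an auxin-responsive family with a cytochrome b561 domain, was at 9.00 in wounded opr3 and 7.15 in opr3 control, and at 8.24 in wounded wt and 6.61 in wt control. It was higher in opr3 in both states, by 1.69-fold after wounding and 1.46-fold before, with a response of 3.60-fold in opr3 and 3.10-fold in wt. AT3G06035, which encodes a membrane-anchored glycoprotein, was at 7.30 in wounded opr3 and 5.28 in opr3 control, and at 8.02 in wounded wt and 5.50 in wt control. With 4.05-fold in opr3 and 5.75-fold in wt it had the widest gap toward wt among the named members.

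Of the named members, 3 belong to families linked to defence. AT2G34930, a leucine-rich repeat protein gene of a disease resistance family, was at 7.52 in wounded opr3 and 4.93 in opr3 control, and at 8.56 in wounded wt and 5.60 in wt control. It was lower in opr3 by 2.06-fold after wounding and 1.58-fold before, with a response of 5.99-fold in opr3 and 7.78-fold in wt. AT4G36010, of the thaumatin family to which pathogenesis-related protein 5 belongs, was at 6.50 in wounded opr3 and 4.02 in opr3 control, and at 6.28 in wounded wt and 4.23 in wt control. It was about 5.57-fold higher in opr3 and about 4.14-fold in wt. AT4G22470, of the family of lipid-transfer proteins and protease inhibitors, was at 6.98 in wounded opr3 and 4.36 in opr3 control, and at 7.41 in wounded wt and 4.96 in wt control, or about 6.14-fold and 5.47-fold higher.

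A further 5 were grouped under metabolism or the fate of proteins, although AT5G12010 among them is related to transposon-derived nucleases. AT5G38710 encodes a proline dehydrogenase, which starts proline breakdown in mitochondria. It was at 6.50 in wounded opr3 and 3.75 in opr3 control, against 7.56 in wounded wt and 4.60 in wt control. Among named members it lay lowest in opr3 relative to wt, by 2.09-fold after wounding and about 1.81-fold before, and its response was about 6.74-fold in opr3 and about 7.79-fold in wt. AT3G54400, an aspartyl protease gene, was at 8.93 in wounded opr3 and 6.76 in opr3 control, and at 8.47 in wounded wt and 6.48 in wt control, or 4.48-fold and 3.98-fold higher. AT3G51660, a gene of the MIF-like tautomerase family, was at 9.55 in wounded opr3 and 7.53 in opr3 control, and at 9.57 in wounded wt and 7.83 in wt control. The line difference (opr3 minus wt) was -0.02 after wounding and -0.30 before, and the response was 4.07-fold in opr3 and 3.35-fold in wt.

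AT4G21870, a small heat shock protein (HSP20-like) gene, was at 9.05 in wounded opr3 and 7.29 in opr3 control, and at 8.80 in wounded wt and 7.01 in wt control, or 3.38-fold and 3.46-fold higher. AT5G12010, a gene related to transposon-derived nucleases, was at 9.60 in wounded opr3 and 7.64 in opr3 control, and at 9.43 in wounded wt and 7.75 in wt control, or 3.89-fold and 3.19-fold higher.

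For the remaining 3 named members no role is given here. AT1G15010 was at 10.21 in wounded opr3 and 6.40 in opr3 control, and at 10.89 in wounded wt and 6.85 in wt control, a response of 14.0-fold in opr3 and 16.5-fold in wt. AT5G54300 was at 8.42 in wounded opr3 and 5.32 in opr3 control, and at 8.51 in wounded wt and 5.50 in wt control, or 8.52-fold and 8.09-fold higher. AT1G16850 was at 7.22 in wounded opr3 and 4.51 in opr3 control, and at 7.17 in wounded wt and 4.67 in wt control, or about 6.56-fold and about 5.64-fold higher. With AT4G30650, the genes AT1G15010 and AT5G54300 are the named ones among the 8 members at least 8-fold higher in both lines.

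**Figure D2:**
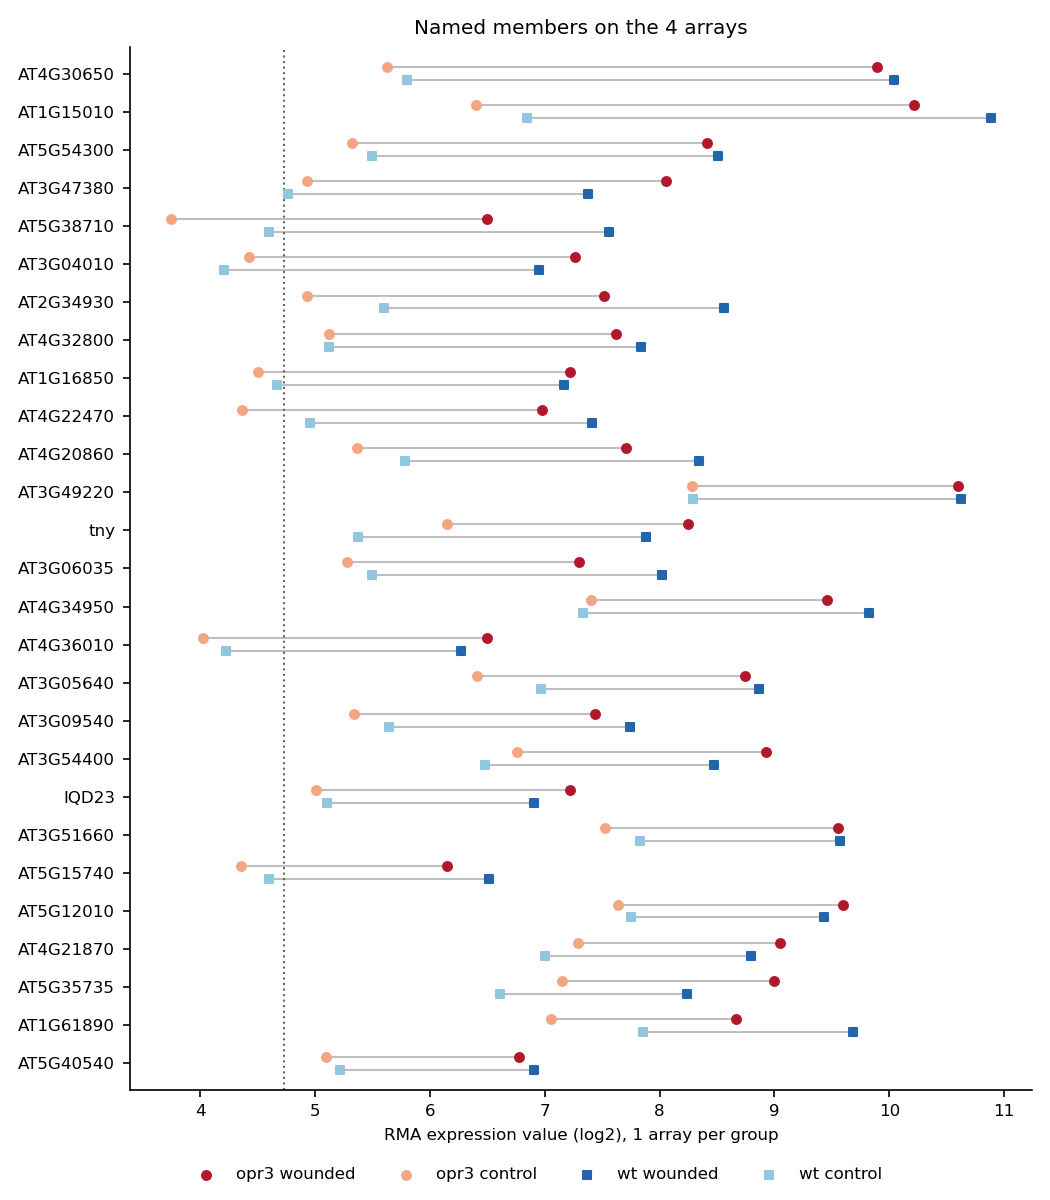
RMA expression value (log2) of the 27 named members in opr3 wounded, opr3 control, wt wounded and wt control, 1 array per group, ordered by mean response, with a dotted line at the filter level of 4.73. Grey bars join wounded and control of a line. Both bars of a gene have similar lengths because the rule chose members with similar responses in both lines. The lengths still differ for some genes. AT3G47380 has a response of 3.12 in opr3 and 2.61 in wt, and AT3G06035 has 2.02 and 2.52. The position of the bars differs between lines for some genes, such as AT5G38710 and AT1G61890 (lower in opr3) and AT5G35735 (higher in opr3).

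The 38 members without a single named gene gave a similar range, 1.59 to 4.29 in opr3 (median 1.99) and 1.63 to 3.78 in wt (median 2.05). Probe set 248337_at had the largest response among them, with 12.02 in wounded opr3 and 7.72 in opr3 control, and 11.80 in wounded wt and 8.02 in wt control. In 2 of the 38 the probe set name marks oligonucleotides that match several transcripts.

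The rule set a lower limit for the responses and a limit for their gap, but none for the difference between lines before wounding. The control values still enter it through the responses. In control plants the members' median difference, opr3 minus wt, was -0.19 (log2), against -0.04 for all tested probe sets. Members lay lower in opr3 in 47 cases (72.3%, against 58.8% of all tested probe sets) and higher in 18. After wounding the median was -0.10, with 37 lower (56.9%, against 49.5% of all tested probe sets) and 28 higher. Differences after wounding and before share their arrays with the responses, and the rule holds them within 0.585 of each other for each member.

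Between the lines, 51 members (78.5%) were within 1.5-fold in control plants, against 96.1% of all tested probe sets. In wounded plants 46 members (70.8%) were within 1.5-fold, against 91.3% of all tested probe sets. Of the 65 members 6 (9.23%) were at least 2-fold lower in opr3 controls and none higher, where 0.575% of all tested probe sets were lower and 0.418% higher. All 6 lack a single named gene. They were 2.14-fold to 3.12-fold lower in opr3 controls and 1.91-fold to 4.39-fold lower in wounded opr3. In wounded plants 9 members (13.8%) were at least 2-fold lower in opr3 and none higher, against 1.66% and 1.34% of all tested probe sets, and 4 members passed the 2-fold limit in both states. The named ones among the 9 were AT5G38710, AT2G34930 and AT1G61890.

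Probe set 254232_at lay lowest in opr3 relative to wt in either state, at 9.99 in wounded opr3 against 12.12 in wounded wt, and at 7.93 in opr3 control against 9.57 in wt control. Its response was 2.06 in opr3 and 2.55 in wt (log2). Its wounded opr3 value thus lay close to its wt control value. Probe set 252618_at was at 12.01 in wounded opr3 and 10.01 in opr3 control, against 13.14 in wounded wt and 11.48 in wt control. Probe set 256017_at was at 8.75 in wounded opr3 and 6.99 in opr3 control, against 10.17 in wounded wt and 8.27 in wt control. In both, the opr3 value was the lower one in either state.

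**Figure D3:**
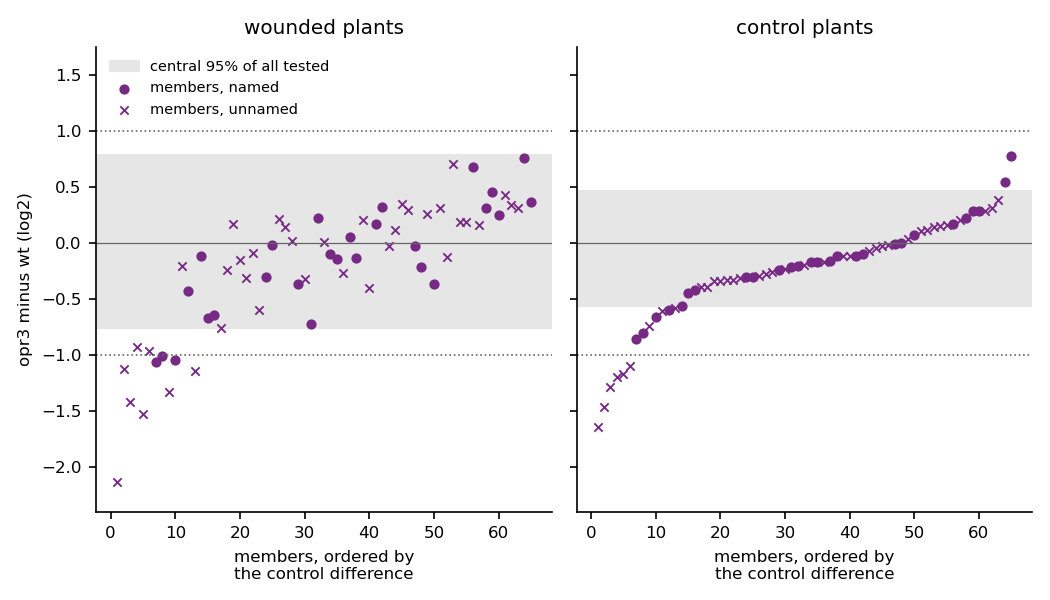
Difference opr3 minus wt (log2) of the 65 members in wounded and in control plants, 1 array per group, ordered in both panels by the control difference, with dotted lines at 2-fold and a grey band for the central 95% of all tested probe sets. No member lies at or above the upper dotted line, while 9 in wounded and 6 in control plants lie below the lower one.

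The control arrays enter both the response and the control difference, so the values of other probe sets are given side by side without a comparison. After wounding 128 probe sets were 3-fold or more above control in wt while their factor in opr3 was smaller by 1.5-fold or more. Of these, 24 (18.75%) were at least 2-fold lower in opr3 controls and 1 higher, and their median was -0.46. Conversely, 152 were 3-fold or more above control in opr3 while their factor in wt was smaller by 1.5-fold or more. Among them, 37 (24.3%) were at least 2-fold lower in opr3 controls and none higher, with a median of -0.50.

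Both control values were under the filter level for 10 members (15.4%, against 3.50% of all tested probe sets). For 4 members 1 of them was, and for 51 none. The 10 passed the filter only through the wounded arrays. They include AT5G38710, AT3G04010, AT1G16850, AT4G36010 and AT5G15740. No wounded value of a member was below 5.51, and no probe set met the other limits while failing the filter.

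At the limits of the rule, the smallest response among members was 1.588 in opr3 (an unnamed probe set), and just outside lay AT5G61890, with 1.621 in opr3 and 1.583 in wt, and AT2G23120, with 1.96 in opr3 and 1.581 in wt. The widest gap among members was 0.584, toward wt. LCR69, a gene of low-molecular-weight cysteine-rich (defensin-like) proteins, lay just outside at 0.587, with a response of 2.27 in opr3 and 1.68 in wt.

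Relatives of some members were described too. They were listed from family membership after the members were known. For relatives that the annotation used does not name, it is not known whether they are among the members without a single named gene. Of 7 other RCI2 genes written, 4 were named in the annotation used and 3 tested. None of the 3 was at least 3-fold higher in either line, where 1.91% of all tested probe sets were in opr3 and 1.72% in wt. AT4G30660, of the same family and next to AT4G30650 in the gene table, was at 8.41 in wounded opr3 and 8.72 in opr3 control, and at 8.86 in wounded wt and 8.68 in wt control. Its log2 response was -0.31 in opr3 and 0.18 in wt.

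Among 26 other berberine bridge enzyme-like genes written, 9 were tested, with none at least 3-fold higher in opr3 and 1 in wt. That gene, AT2G34810, contrasts with the member AT4G20860: it was at 5.37 in wounded opr3 and 5.09 in opr3 control, against 8.23 in wounded wt and 5.92 in wt control. Its response was 0.28 in opr3 and 2.31 in wt (log2). The log2 responses of the 9 ran from -0.86 (AT4G20820) to 1.19 (AT5G44400) in opr3, and from -0.67 (AT4G20820) to 2.31 (AT2G34810) in wt.

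Of 2 other EGR phosphatase genes, AT5G27930 (EGR2) came close to the 3-fold limit, at 7.87 in wounded opr3 and 6.31 in opr3 control, and at 7.87 in wounded wt and 6.53 in wt control. The log2 difference was 1.56 in opr3 and 1.33 in wt, whereas AT3G16800 differed by 0.20 and 0.06. Of the 2 tested tautomerase relatives 1 was at least 2-fold lower after wounding in both lines. That gene, AT5G57170, was at 7.22 in wounded opr3 and 8.57 in opr3 control, and at 7.45 in wounded wt and 8.49 in wt control. Its response was -1.36 in opr3 and -1.05 in wt, and that of AT5G01650 was -0.26 and -0.28. Of 9 tested IQD genes, out of 14 found by symbol, none was at least 3-fold higher, and their log2 responses ran from -1.12 (iqd21) to 0.33 (IQD22) in opr3 and from -1.11 (IQD28) to 0.93 (IQD22) in wt.

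Of 11 relatives of TINY and AT4G32800 written, 2 were tested. AT1G01250 had a response of -0.81 in opr3 and -0.83 in wt, and AT2G44940 one of -0.11 and -0.22. AT3G02250 (RRT2), the relative of AT5G15740, had a response of 0.53 in opr3 and 0.83 in wt, and the other proline dehydrogenase gene was not named in the annotation used.

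**Figure D4:**
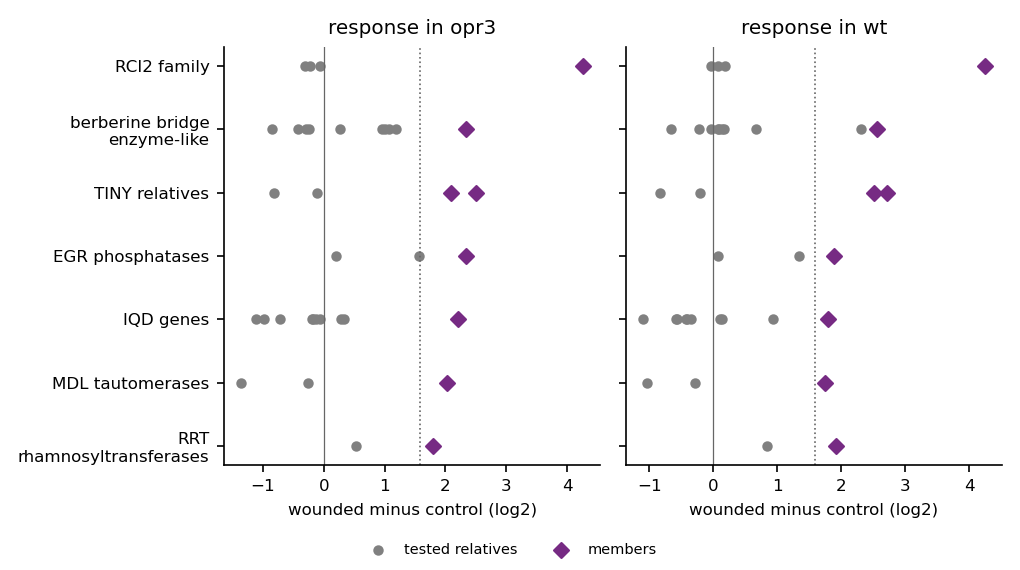
Wounding response (wounded minus control, log2) in opr3 and in wt for named members (diamonds) and their tested family relatives (grey points), 1 array per group, with a dotted line at the 3-fold limit. Of the tested relatives 1 passes the limit, the berberine bridge enzyme-like gene AT2G34810 in wt. Relatives not named in the annotation used are not shown.

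Next to the named members along the chromosomes, 49 neighbouring genes (up to 2 on either side) were named. Of these, 34 were tested, beside 20 of the named members, and neighbours not named may be members themselves. None of the 34 was at least 3-fold higher in either line, against 1.91% of all tested probe sets in opr3 and 1.72% in wt. The median log2 response of the 34 was 0.17 in opr3 and 0.18 in wt. AT1G16860, beside AT1G16850, alone was at least 2-fold higher in both lines, with 1.18 in opr3 and 1.04 in wt. The named members lie on all 5 chromosomes.

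The 17 lists of wound, stress and marker genes were written with earlier results of these data known. Of their 176 entries, 32 were named in the annotation used and 29 tested, so for most entries it is not known whether they are members. Of the named ones 1 is a member, AT4G30650 of the abscisic acid and dehydration list. Besides it, 4 of the 30 genes written in that list were tested. All 4 were at least 3-fold higher in opr3 and 2 in wt, against 1.91% and 1.72% of all tested probe sets, with median log2 responses of 2.54 in opr3 and 1.62 in wt. COR47 was 3.10-fold higher in opr3 and 2.64-fold in wt. LTI30, COR15A and COR15B encode dehydrin and other cold-regulated protective proteins. Their response was larger in opr3 by 1.16, 1.16 and 0.85 (log2), against 0.02 for AT4G30650. In control plants their opr3 minus wt was -0.57, -0.85 and -0.25, against -0.17 for AT4G30650 and 0.04 for COR47. The opr3 control value of LTI30, 4.70, was under the filter level, so its response is approximate.

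The 4 tested jasmonate turnover genes, out of 11 written, were all at least 3-fold higher in wt, and 1 was in opr3, with medians of 1.04 in opr3 and 4.36 in wt. That gene, AT5G05600, meets the rule but was left out by name. AER, an alkenal reductase gene and the tested one of 13 written in the list of electrophile and OPDA response, came near the rule without meeting it: it was at 8.26 in wounded opr3 and 6.54 in opr3 control, and at 7.89 in wounded wt and 6.41 in wt control, or 3.29-fold and 2.79-fold higher.

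None of the named genes in the other lists is a member. None of their tested genes was at least 3-fold higher in opr3, and in wt 1 was, MGL, a methionine gamma-lyase gene, at 3.0-fold. In the list of glucosinolate and tryptophan genes, BCAT4 had a response of 2.5-fold in opr3 and 2.42-fold in wt, under the 3-fold limit. Of 2 tested jasmonate synthesis genes and 2 response markers, none was at least 3-fold higher in either line. No JAZ repressor, antioxidant, raffinose or senescence gene written was named in the annotation used.

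Leaf markers were high on every array: RCA, the activase of Rubisco, lay between 13.47 and 13.54, and LHCB4.1 between 13.49 and 13.57. The guard cell gene FMA had responses of -0.15 in opr3 and -0.09 in wt, the root marker EXPA7 was under the filter level on all 4 arrays, and no flower, seed or vascular marker was named. OPR3 itself was not named in the annotation used, so its level was not analysed here. The mean over all probe sets was 5.90 on every array. For the spiked-in bacterial transcripts, the probe sets at the 5' end minus those at the 3' end gave a mean of -1.29 (log2) in wounded opr3 and -1.27 in opr3 control, and -2.0 in wounded wt and -1.16 in wt control, over 8 probe set pairs. The wounded wt array thus stands apart, and its part in the wt responses was not tested.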

How the data were processed

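The authors deposited 1 log2 expression value for each probe set and array, made with RMA and Partek, per the submitters' processing notes (no versions). Genome build and probe annotation of the authors are not given in the sources used here, so no coordinates are printed. Of 22810 probe sets 64 are array controls. Names came from the platform annotation (13513 probe sets with 1 gene, 503 with several, 8730 plant probe sets unlisted), updated through the TAIR10.1 gene table (13436 matched).

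Differences are log2 of 1 array minus another. The filter level, 4.73, is the 40th percentile of all values rounded to 2 decimals. With 1 array per group no test, p-value or interval was computed, and the number of arrays limits precision. Lists use 1 probe set per gene, the tested one with the highest mean. Members and lists were chosen with earlier results of these data known, and relatives and roles after the members were known. All 27 named members are given; those just outside the rule are named once. The rule was run on simulated data as a check of the code. Responses were added there only to probe sets with control values well above the filter level, so members with lower control values were not covered. Python 3.11.15, numpy 2.4.6, pandas 2.3.3, R 4.3.3 and limma 3.58.1 were used. Alternatives varied the filter, the limits of the rule and the scaling between arrays (median centring, quantile normalization, cyclic loess). The rule also leaves out symbols starting with UGT, CYP, MYB, NAC, ANAC, BHLH, BZIP, ERF or WRKY. No probe set was removed by such a start, and probe sets without a single named gene could not be screened by name. Promoter motifs were not analysed here, because no sequence table was used.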

Additional observations from a re-analysis of the deposited data

How the results depend on the processing

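The number of members was 65, and the same 65 probe sets, with no filter or with a level set at percentile 20 or 60. It stayed within 1.5 times of 65 under median centring (67, of which 60 shared), quantile normalization (64, of which 60 shared), cyclic loess (75, of which 64 shared), the narrower allowed gap (44), a wider gap of 2-fold (96), and the rule without its left-out genes (71). With both control values at or above the filter level, a choice made after seeing the data, it was 51. It moved to 215 with a 2-fold and to 32 with a 4-fold limit. The members' median responses kept their direction under all 3 scalings, which the choice of members largely fixes. Their median differences between lines kept their direction too, and no scaling moved the median of all tested probe sets by over 0.1. The count of members at least 2-fold different between the control arrays was 6 under each scaling, 14 at a 1.5-fold limit and 0 among named genes. The motif shares planned for member promoters were not run. No call has a replicate check, and values under the filter level limit the folds of 14 members.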
